A study of Mus musculus with 6 samples.

Results

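A set of 5 genes of G protein-coupled receptor and cAMP signalling was followed in primary mouse embryonic fibroblasts (MEFs). They were Adora2b, Adcyap1r1, Gpr176, Adm and Prkar2b, that is, 3 receptors, 1 peptide ligand and 1 subunit of protein kinase A. The 5 were picked by symbol from the 491 transcript clusters that the authors list as differing between the genotypes, out of 23332 clusters on the array. A transcript cluster is the set of probes summarised for 1 gene. The listed clusters are 2.10% of all clusters. Since the authors chose that list by the same contrast, the differences of the 5 genes between genotypes are given as a description, without a test, and their size is not evidence of an effect.

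The study asked which genes change expression when the Bahd1 gene is ablated in MEFs. BAHD1 is a chromatin protein that promotes gene silencing. Cultures came from 3 Bahd1-KO (Bahd1-/-) and 3 Bahd1-WT (Bahd1+/+) embryos of heterozygous crosses at E13.5, of strain C57BL/6 per the labels, which name no other allele and no agent, and each embryo was dissociated on its own and measured on 1 Mouse Exon 1.0 ST array. The deletion was total and present in every cell of the embryo, and MEFs are the cells that attach and grow out of a minced headless embryo, so the cultures can hold more than 1 cell type, although a single passage was meant to remove cells that do not divide. In such bulk RNA, a gene that differs because its cells are more numerous and one that differs because each cell holds more RNA cannot be told apart. The labels do not give the sex of the embryos, and which embryos shared a litter is not given in the sources used here.

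G protein-coupled receptors sit in the plasma membrane and pass the binding of a ligand on to heterotrimeric G proteins. Gs stimulates adenylyl cyclases, which make cAMP, and Gi inhibits them. Protein kinase A (PKA) is held inactive by its regulatory subunits until cAMP binds them, phosphodiesterases break cAMP down, and the kinase acts on, among others, transcription factors of the CREB family. In fibroblasts, cAMP is known for restraining proliferation, contraction and matrix production. Adora2b encodes the low-affinity adenosine receptor, which couples to Gs. Adcyap1r1 encodes the PAC1 receptor for the neuropeptide PACAP, which couples to Gs and also to Gq. Gpr176 encodes an orphan receptor that, in the mouse circadian clock, lowers cAMP. Adm encodes adrenomedullin, a vasodilator peptide whose receptor is the calcitonin receptor-like receptor with a RAMP protein and signals through cAMP. Prkar2b encodes the RIIbeta regulatory subunit of PKA.

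All values are log2 values from RMA, a procedure that corrects the background, normalizes the arrays and summarises the probes of a cluster. A difference of 1 is a doubling, and differences are those of Bahd1-KO over Bahd1-WT MEFs, so that a positive value means higher in Bahd1-KO. Values of different clusters are not compared with each other as levels, since probes differ in brightness. The median log2 value over all clusters lay between 5.02 and 5.06 on the Bahd1-KO arrays and between 5.01 and 5.05 on the Bahd1-WT arrays. Bahd1 is not among the clusters that the files used here name, so the ablation could not be checked on these arrays. The paper reports that the loss of Bahd1 expression was verified in MEFs, placenta and embryo liver by RT-qPCR. Averaged over 3 Y-linked genes, the log2 level was 7.06 and 7.03 in Bahd1-KO 2 and 3 and 2.38 in Bahd1-KO 1. It was 7.19 in Bahd1-WT 2, with 2.36 and 2.38 in Bahd1-WT 1 and 3. These 3 genes are themselves among the 491 clusters that the authors list. Their differences were 1.79 for Ddx3y, 1.54 for Eif2s3y and 1.20 for Kdm5d, and the genotypes overlapped for each.

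Adora2b lies on chromosome 11, where its cluster of 57 probes spans 62062377 to 62084296 on the plus strand in the array annotation, whose genome build is not given in the sources used here. Adm lies on chromosome 7, where its cluster of 40 probes spans 117760992 to 117773334 on the plus strand. The Adm cluster spans 12343 bases, while RefSeq gives the gene 2164 bases. For Adora2b these lengths are 21920 and 17469 bases. Where the probes lie within each span was not checked. The 250 bases before the annotated start of these 2 genes are shown because they differ in the motifs counted further on, and because these are the receptor with the closest replicates and the ligand with the largest difference. They come from RefSeq, build GRCm38.p6, plus strand, at chr11:62248734-62248983 for Adora2b and chr7:110627407-110627656 for Adm, and the capitals mark GC boxes, the letters GGGCGG or, on the other strand, CCGCCC.
Adora2b: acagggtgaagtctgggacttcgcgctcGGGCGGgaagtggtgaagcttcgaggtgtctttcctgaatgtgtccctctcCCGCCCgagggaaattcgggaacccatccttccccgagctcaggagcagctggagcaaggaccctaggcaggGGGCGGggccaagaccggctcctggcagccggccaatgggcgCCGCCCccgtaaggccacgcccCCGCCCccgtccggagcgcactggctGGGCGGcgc
Adm: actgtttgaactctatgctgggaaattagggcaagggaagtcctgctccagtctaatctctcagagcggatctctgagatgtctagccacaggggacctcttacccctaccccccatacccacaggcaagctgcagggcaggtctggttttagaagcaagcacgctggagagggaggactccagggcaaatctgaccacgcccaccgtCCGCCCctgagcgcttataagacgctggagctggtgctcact
The Adora2b stretch holds 6 GC boxes and is 69.6% G and C. The Adm stretch holds 1 and is 56.8% G and C, against a median of 52.4% over 32851 such windows of 27025 genes.

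The 3 receptors were higher on every Bahd1-KO array than on any Bahd1-WT array. For Adora2b, the log2 values were 7.15, 7.12 and 7.21 in Bahd1-KO MEFs 1 to 3, and 6.55, 6.62 and 6.42 in Bahd1-WT MEFs 1 to 3. The arrays of each genotype lay close together, within 0.08 for Bahd1-KO and 0.20 for Bahd1-WT, and the lowest Bahd1-KO array was 0.50 above the highest Bahd1-WT array. The means were 7.16 ± 0.04 in Bahd1-KO and 6.53 ± 0.10 in Bahd1-WT MEFs (SD, n = 3 each), a difference of 0.63 with a standard error of 0.08 from limma's fit over all clusters, or 1.55-fold. This standard error borrows from the spread of all clusters. Larger differences were found for 478 clusters (2.05% of all) that were higher in Bahd1-KO MEFs, and 520 were lower by more than this.

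Adcyap1r1, on chromosome 6 (55399893 to 55451441, plus strand, 235 probes), had log2 values of 5.64, 5.94 and 5.81 in Bahd1-KO MEFs, and 5.14, 5.03 and 5.03 in Bahd1-WT MEFs. Here the Bahd1-KO arrays were the more scattered ones, and Bahd1-KO 1, the lowest of them, was still 0.50 above the highest Bahd1-WT array. The means were 5.79 ± 0.15 in Bahd1-KO and 5.07 ± 0.06 in Bahd1-WT MEFs, which differ by 0.73 (standard error 0.10) or 1.66-fold. The difference was larger in 309 clusters (1.32%) that were higher in Bahd1-KO MEFs, and 364 clusters were lower by more. The cluster was brighter than 54.0% of all clusters.

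Gpr176, on chromosome 2 (118102846 to 118199674, minus strand, 117 probes), had log2 values of 9.35, 9.55 and 9.61 in Bahd1-KO MEFs, and 9.01, 9.15 and 8.82 in Bahd1-WT MEFs. It was the receptor with the narrowest gap, 0.21 between Bahd1-KO 1 and Bahd1-WT 2. The means were 9.50 ± 0.13 in Bahd1-KO and 8.99 ± 0.16 in Bahd1-WT MEFs, a difference of 0.51 (standard error 0.12). Its cluster was brighter than 91.9% of all clusters, and 842 clusters (3.61%) were higher and 846 lower in Bahd1-KO MEFs by more than it. Gpr176 is on the same chromosome as Bahd1, with 13 RefSeq protein-coding genes between them. The files name 2 other genes within 20 genes of Bahd1, and both were lower on every Bahd1-KO array, Chst14, next to Bahd1, by a log2 difference of -0.82 and Dnajc17, with 7 genes between it and Bahd1, by -0.92. Gpr176 differed in the other direction from these 2 genes. Genes of this stretch that the authors did not list have no value here, and 85 of the 491 listed clusters were lower on every Bahd1-KO array. The causes of these differences were not tested.

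The ligand gene Adm had the largest difference of the 5 and also the largest spread. Its log2 values were 6.97, 6.48 and 6.63 in Bahd1-KO MEFs, and 4.77, 5.91 and 5.83 in Bahd1-WT MEFs. The arrays of the genotypes did not overlap, with 0.56 between Bahd1-KO 2 and Bahd1-WT 2, but Bahd1-WT 1 lay more than 1 log2 unit below the other Bahd1-WT arrays. The means were 6.69 ± 0.25 in Bahd1-KO and 5.50 ± 0.64 in Bahd1-WT MEFs, a difference of 1.19 (standard error 0.33) or 2.28-fold. In the same direction 38 clusters (0.163%) had a larger difference, and 58 were lower in Bahd1-KO MEFs by more than this. The Bahd1-WT SD of Adm was larger than that of 98.5% of the 2352 clusters within 0.5 log2 of its brightness. Without Bahd1-WT 1 the difference was 0.82, so that 1 array carries much of its size.

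Prkar2b, on chromosome 12 (32643116 to 32746237, minus strand, 154 probes), was the one gene whose genotypes overlapped. Its log2 values were 7.44, 7.81 and 7.80 in Bahd1-KO MEFs, and 7.19, 7.41 and 7.72 in Bahd1-WT MEFs. Bahd1-KO 1 lay below Bahd1-WT 3 by 0.28 and beside Bahd1-WT 2. The means were 7.68 ± 0.21 in Bahd1-KO and 7.44 ± 0.27 in Bahd1-WT MEFs, a difference of 0.24 (standard error 0.17) that is about as large as the SD between replicates. By more than this, 3156 clusters were higher and 2685 lower in Bahd1-KO MEFs. The difference of Prkar2b was 0.12 without Bahd1-WT 1 and 0.39 without Bahd1-WT 3.

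**Figure D1:**
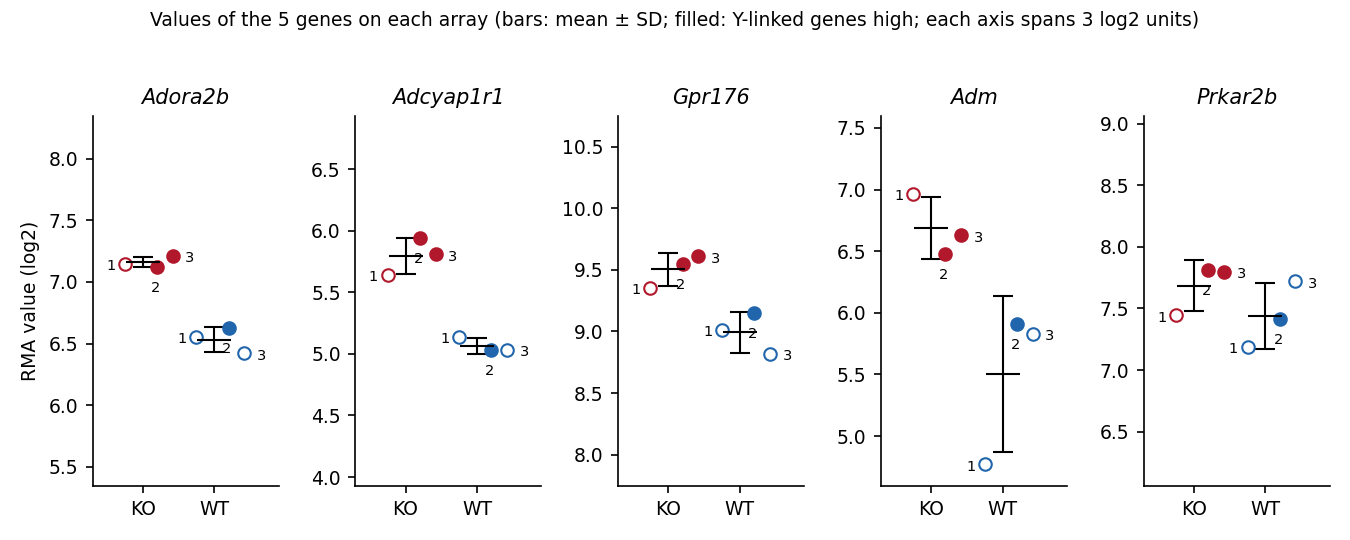
RMA log2 values of the 5 genes on each array, with Bahd1-KO left of Bahd1-WT in each panel; numbers are the replicates, bars give the mean and SD of 3 arrays, and filled points are cultures with high Y-linked genes. The genotypes are apart for Adora2b, Adcyap1r1, Gpr176 and Adm and overlap for Prkar2b, and Bahd1-WT 1 stands low for Adm at 4.77.

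Of the 5 genes, 4 thus had all Bahd1-KO arrays above all Bahd1-WT arrays, where 11.4% of all 23332 clusters (2663) did and 6.64% (1550) had all of them below. Of the 491 listed clusters, from which the 5 were picked, 293 (59.7%) had all Bahd1-KO arrays above. The list was drawn up for such differences, so nothing is read from that contrast. The median difference of the 5 was 0.63, against 0.43 over the 491 listed clusters and 0.02 over all clusters. All 5 were higher, while 137 of the 491 were lower, so these medians are of unlike sets. Of all clusters, 12631 were higher and 10701 lower in Bahd1-KO MEFs. limma with Benjamini-Hochberg adjustment over all clusters called 0 of 23332 (0%) at an adjusted p under 0.05. The smallest adjusted p was 0.222, and 2425 clusters had an unadjusted p under 0.05.

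**Figure D2:**
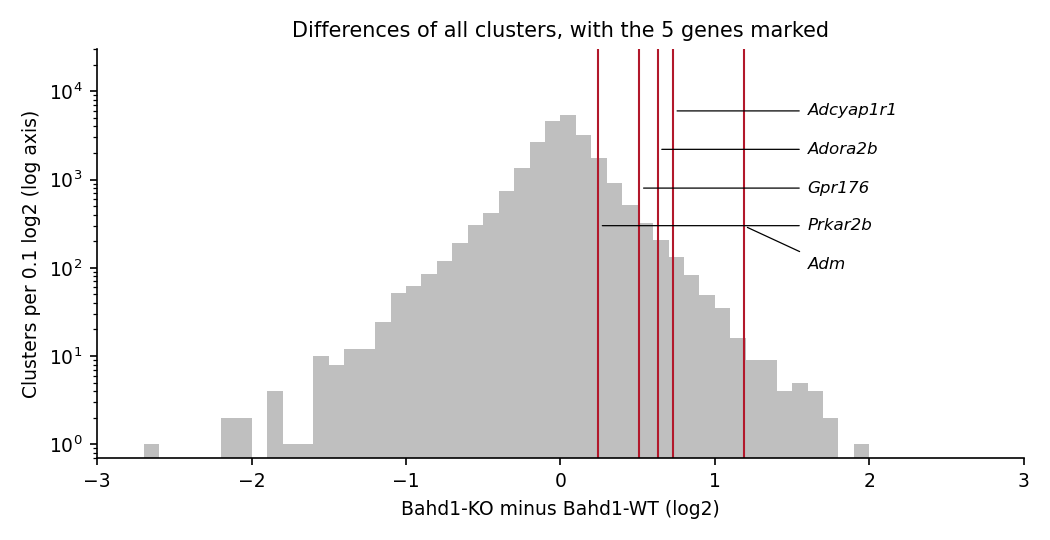
Number of clusters (log axis) by log2 difference, Bahd1-KO minus Bahd1-WT, in bins of 0.1 over all 23332 clusters, with red lines at the 5 genes. Prkar2b, at 0.24, falls in the shoulder of the distribution, Gpr176, Adora2b and Adcyap1r1 lie between 0.51 and 0.73, and Adm, at 1.19, lies in the tail.

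The order of the arrays was not the same from gene to gene. Bahd1-KO 1 was the lowest Bahd1-KO array for Adcyap1r1, Gpr176 and Prkar2b and the highest for Adm. Bahd1-WT 2 was the highest Bahd1-WT array for Adora2b, Gpr176 and Adm and the lowest for Adcyap1r1. Bahd1-WT 3 was the lowest for Adora2b and Gpr176 and the highest for Prkar2b. No single array was thus the extreme one for all 5 genes.

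Cultures with and without high Y-linked genes were also compared separately. Among the cultures with high levels, Bahd1-KO 2 and 3 exceeded Bahd1-WT 2 by 0.54 for Adora2b, 0.84 for Adcyap1r1, 0.43 for Gpr176, 0.64 for Adm and 0.39 for Prkar2b. Among those with low levels, Bahd1-KO 1 exceeded the mean of Bahd1-WT 1 and 3 by 0.66 for Adora2b, 0.55 for Adcyap1r1, 0.44 for Gpr176 and 1.67 for Adm. For Prkar2b the difference there was -0.01. Each of these comparisons has 1 array on one side. For the 3 receptors and Adm the direction follows from the separation of all 6 arrays, so only the sizes are informative here.

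**Figure D3:**
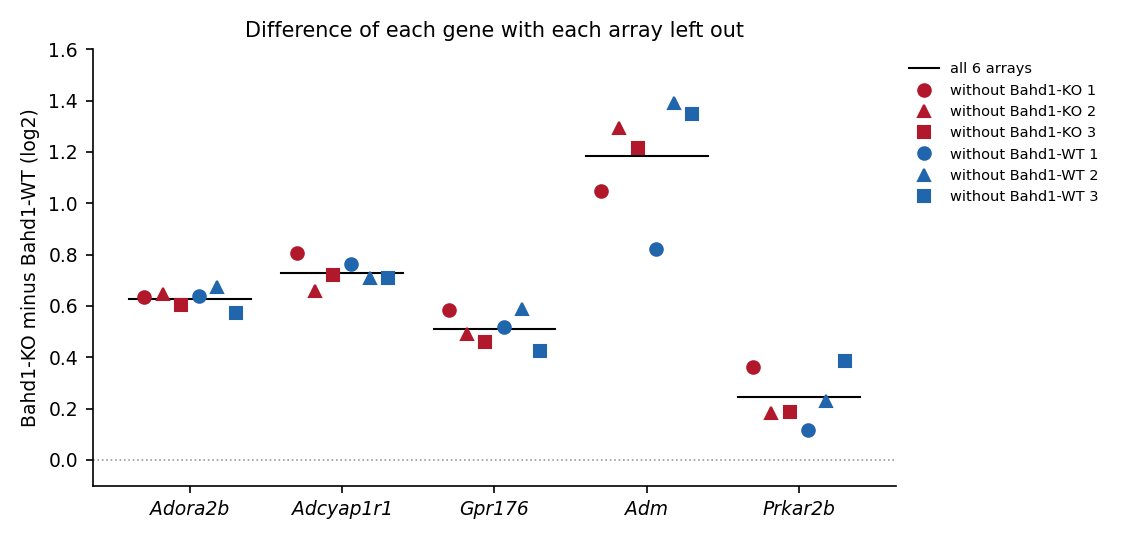
Log2 difference, Bahd1-KO minus Bahd1-WT, of each gene over all 6 arrays (black line) and with each array left out (red, a Bahd1-KO array; blue, a Bahd1-WT array). The points stay near the line for Adora2b (0.57 to 0.67), Adcyap1r1 (0.66 to 0.81) and Gpr176 (0.42 to 0.59), and spread more for Adm (0.82 to 1.39) and Prkar2b (0.12 to 0.39).

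Likeness of pattern was measured by Pearson's r over the 6 arrays against the other 490 listed clusters, as a description. These clusters share the arrays and were all listed for the same contrast, so high values are common among them. Adora2b was most like Ldb3 (r = 0.996), a muscle Z-disc protein gene, Pfkfb3 (0.993), a regulator of glycolysis, and Dusp4 (0.991), a MAP kinase phosphatase, and had an r above 0.9 with 183 clusters. Adcyap1r1 was most like the actin regulator Cfl2 (0.989), the keratin gene Krt18 (0.987) and Raet1e (0.986), a ligand of an immune receptor. Gpr176 was most like Errfi1 (0.997), an inhibitor of EGF receptor signalling, Tm4sf1 (0.995), a membrane protein gene, and Hmgcs1 (0.995), an enzyme of cholesterol synthesis. Adm was most like Mfap5 (0.987), a microfibril protein gene, Cck (0.987), a peptide hormone gene, and Npnt (0.971), a matrix protein gene. Prkar2b was most like Mrps10 (0.979), a mitochondrial ribosomal protein gene, Cadm1 (0.971), an adhesion molecule gene, and Ramp3 (0.905), and these were its only 3 values above 0.9. Adm had 24 such values, Adcyap1r1 144 and Gpr176 177.

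Among themselves the 3 receptors had an r of 0.955 for Adora2b with Gpr176, 0.948 for Adora2b with Adcyap1r1 and 0.925 for Adcyap1r1 with Gpr176. Adm had 0.806 with Adora2b. Prkar2b had values between 0.439 and 0.608 with the other 4. These values include the step between genotypes, for which all 491 clusters were listed. Among the 490 clusters compared with Adora2b, Gpr176 came in place 82 and Adcyap1r1 in place 97, and Adcyap1r1 came in place 138 for Gpr176.

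The wider pathway was described from 14 lists of 182 genes. The files used here name only the clusters the authors listed, so 20 of the 182 could be looked up, 5 of them the genes above. Of the other 15, 14 were higher and 1 was lower in Bahd1-KO MEFs, with a median difference of 0.58. All Bahd1-KO arrays lay above all Bahd1-WT arrays for 11 of them and below for 1. Of all 491 listed clusters, 354 (72.1%) were higher, and for 293 all Bahd1-KO arrays lay above all Bahd1-WT arrays. These 15 were listed by the authors on the same arrays, so their direction is not independent evidence, and the 162 genes that could not be looked up have no value here.

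Among genes of the ligands and receptors, Ramp3, which pairs with the calcitonin receptor-like receptor to form an adrenomedullin receptor, had log2 values of 7.82, 8.17 and 8.08 in Bahd1-KO MEFs and 7.30, 7.42 and 7.78 in Bahd1-WT MEFs. The genotypes were apart by only 0.04, with a mean difference of 0.53 (standard error 0.16). Adm and Ramp3 were 2 of 10 genes of the adrenomedullin and CGRP list. Of 18 other receptors listed as coupled to Gs, 0 were named, while Adora2b and Adcyap1r1, which couple to Gs, stood in other lists. The list of 31 receptors set down as coupled to Gi or Gq held 5 named genes, among them Gpr176, described above. The serotonin receptor genes Htr1b and Htr2a were higher on every Bahd1-KO array, by 0.71 (standard error 0.21) and 0.70 (0.17). F2rl1, which encodes a protease-activated receptor, overlapped between genotypes, with a difference of 0.57 (standard error 0.30). Ednrb, an endothelin receptor gene, was the one gene of the lists that was lower. Its log2 values were 6.34, 6.50 and 6.28 in Bahd1-KO MEFs and 6.93, 6.55 and 6.79 in Bahd1-WT MEFs, a difference of -0.38 (standard error 0.12).

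Of 16 cAMP phosphodiesterase genes, 3 were named, and all 3 were higher on every Bahd1-KO array, as were 293 of all 491 listed clusters. Pde8b had log2 values of 7.02, 6.93 and 6.97 in Bahd1-KO MEFs, and 6.20, 6.27 and 5.77 in Bahd1-WT MEFs, the widest gap of the 3 at 0.67. Pde7b had 7.69, 7.09 and 7.15 in Bahd1-KO MEFs, and 6.26, 6.75 and 6.53 in Bahd1-WT MEFs. Both encode enzymes specific for cAMP. The third, Pde10a, whose enzyme breaks down cAMP and cGMP, had 6.10, 6.05 and 5.90 in Bahd1-KO MEFs, and 5.51, 5.47 and 5.32 in Bahd1-WT MEFs. Their mean differences were 0.90 (standard error 0.14), 0.80 (0.21) and 0.58 (0.09) in the order Pde8b, Pde7b and Pde10a. Rgs16, which speeds up the shut-off of Gi and Gq, was the 1 named gene of 14 RGS proteins and receptor kinases, with a difference of 0.74 (standard error 0.21).

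Of 9 genes for PKA subunits and inhibitors, the 2 named were the type II regulatory subunits, and for both the genotypes overlapped. Prkar2a had log2 values of 8.09, 8.35 and 8.37 in Bahd1-KO MEFs, and 8.14, 7.87 and 7.67 in Bahd1-WT MEFs, a difference of 0.38 (standard error 0.15). Its overlap came from Bahd1-KO 1, which was also the lowest Bahd1-KO array for Prkar2b, and Bahd1-WT 1. No gene was named of 16 G protein subunits, 10 adenylyl cyclases, 11 A-kinase anchor proteins or 8 other cAMP effectors. Of 11 genes of the CREB family and its coactivators, Creb5 alone was named and overlapped, with a difference of 0.15 (standard error 0.21).

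Of 16 genes that cAMP is known to induce early, 4 were named, and each was higher on every Bahd1-KO array. The differences were 0.95 (standard error 0.14) for Areg and 0.70 (0.22) for Ereg, both ligands of the EGF receptor, 0.53 (0.14) for Ptgs2, the inducible cyclooxygenase, and 0.43 (0.14) for Sik1, a salt-inducible kinase. These 4 genes are induced by many other stimuli too, and 293 of the 491 listed clusters were also higher on every Bahd1-KO array. A further 10 genes of receptor signalling were picked from the listed symbols after they had been seen. Of these, 8 were higher and 2 lower, where 354 of the 491 listed clusters were higher. All Bahd1-KO arrays lay above all Bahd1-WT arrays for 5 of the 10 and below for 1. The 5 were the peptide genes Tac1 (0.88) and Cck (0.67), the receptor genes Gpr149 (0.71) and Gprc5a (0.61), and the phospholipase gene Plcb4 (0.425). The genotypes overlapped for the receptor gene Gpr39 (0.35), the peptide gene Edn1 (0.61) and the G protein gamma subunit gene Gng13 (0.50). They also overlapped for Mc4r, a Gs-coupled melanocortin receptor outside the list of 18. Mc4r was lower on average, with a difference of -0.64 (standard error 0.28). Gng5, a G protein gamma subunit gene, was lower on every Bahd1-KO array, with a difference of -0.81 (standard error 0.29).

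**Figure D4:**
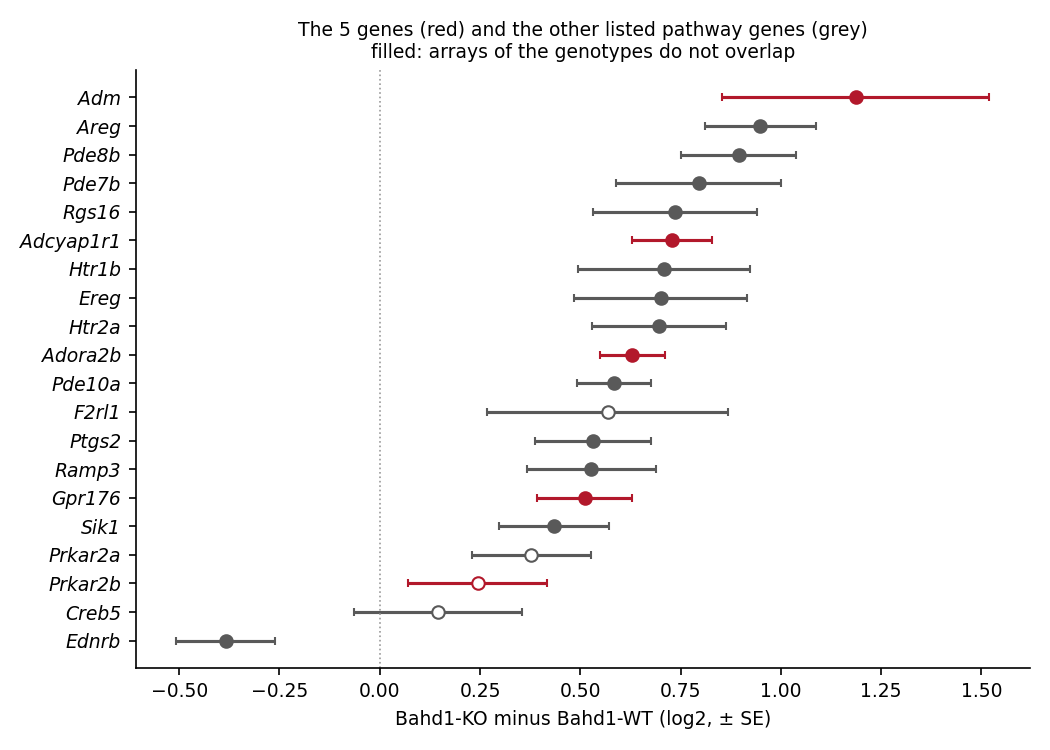
Mean log2 difference, Bahd1-KO minus Bahd1-WT, with its standard error from limma, for the 5 genes (red) and the 15 other pathway genes that the files name (grey); filled points are genes whose arrays do not overlap between genotypes. Adm, at 1.19, has the widest bar, Prkar2b, Prkar2a, F2rl1 and Creb5 are open, and Ednrb, at -0.38, is the one gene below 0.

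Some markers of other cell types could be looked up, all of them clusters that the authors listed as differing between the genotypes. That they differed is thus a matter of selection, and markers that were not listed have no value here. Of the 491 listed clusters, 293 had all Bahd1-KO arrays above all Bahd1-WT arrays. The endothelial markers Flt1, Emcn and Selp, 3 of 9 listed, had a mean log2 level of 6.45 to 6.76 on the Bahd1-KO arrays and 5.57 to 5.87 on the Bahd1-WT arrays, though Flt1 alone overlapped. The keratin genes Krt18, Krt19 and Krt20, 3 of 8 epithelial markers, averaged 7.58 to 7.79 on the Bahd1-KO arrays and 6.60 to 7.14 on the Bahd1-WT arrays, and Krt20 alone overlapped. Of the muscle markers, Des, Acta1 and Cnn1, 3 of 8, averaged 9.01 to 9.19 on the Bahd1-KO arrays and 8.50 to 8.54 on the Bahd1-WT arrays. The blood marker Csf1r, 1 of 8, was at 6.28 to 6.74 on the Bahd1-KO arrays and 6.05 to 6.16 on the Bahd1-WT arrays. The neural marker Nes, 1 of 6, was at 8.25 to 8.45 on the Bahd1-KO arrays and 7.45 to 8.08 on the Bahd1-WT arrays. Pdgfra, the 1 named fibroblast marker of 8, was lower, at 8.13 to 8.50 on the Bahd1-KO arrays and 8.74 to 9.10 on the Bahd1-WT arrays. The other defining markers, such as collagens and Pecam1, could not be looked up, so the labelled cell type was not checked further. Whether other cell types have a part in the differences of the 5 genes was not tested.

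Short motifs were searched on both strands of the 250 bases before each annotated start, as a description of the letters only. The 5 genes have 6 such windows, 2 of them for Prkar2b. The windows of Adcyap1r1, Gpr176 and Prkar2b lie inside the span that RefSeq gives the gene, which begins further upstream, and are not printed. A GC box was found in 5 of the 6 windows, 1 for each gene, and in 32.7% of all windows. The counts were 6 for Adora2b, 4 for Prkar2b, 2 for Gpr176, and 1 each for Adm and Adcyap1r1. These windows are also rich in G and C, 75.6% for the Prkar2b window with GC boxes, 65.6% for Adcyap1r1 and 64.0% for Gpr176.

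The full cAMP response element, TGACGTCA, was in 0 of the 6 windows and in 1.55% of all windows. One arm of it, TGACG, which also lies within the full element, was in 0 of 6 and in 17.8% of all. The AP-1 element TGANTCA was in 0 of 6 and in 6.75% of all. The hypoxia response core has 2 forms. ACGTG was in 1 window, that of Prkar2b, and in 16.6% of all, and GCGTG was in 4 windows, those of Adora2b, Gpr176, Adm and Prkar2b, and in 28.2% of all. A CCAAT box was in the windows of Adora2b and Adcyap1r1, 67 and 28 bases before the start, and in 33.8% of all. In the stretches printed above, GCGTG lies on the other strand as cacgc, 42 bases before the Adora2b start and 90 and 54 bases before the Adm start.

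**Figure D5:**
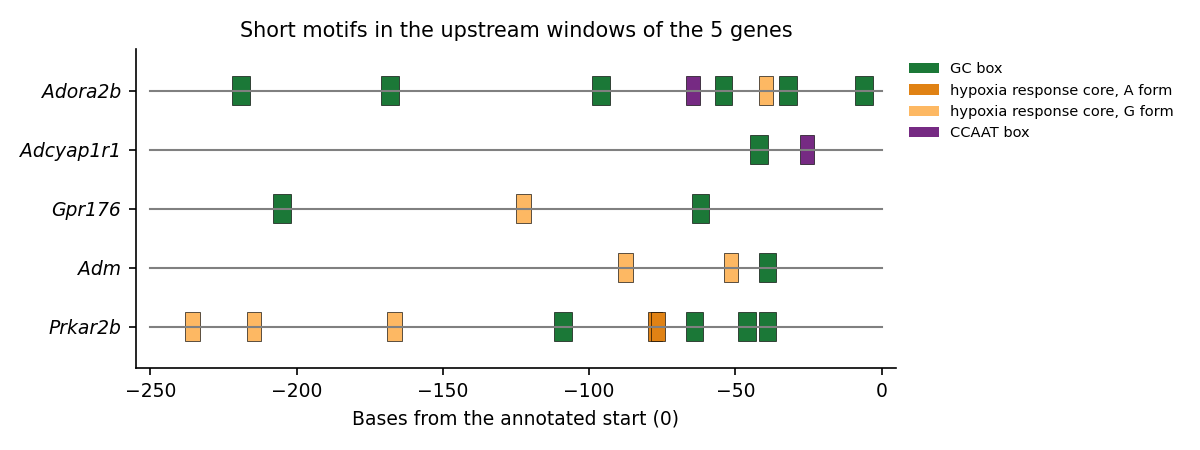
Positions of the motifs found in the 250 bases before the annotated start of each gene (for Prkar2b, the window with GC boxes); the horizontal axis is the distance in bases from the start, and colours mark the kind of motif. Adora2b carries 6 GC boxes across the whole window, and Adm and Adcyap1r1 carry 1 each near the start.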

How the data were processed

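The authors extracted RNA from each culture, hybridized it to Mouse Exon 1.0 ST arrays and deposited log2 values made with RMA at the gene core level for 23332 clusters, 1 array per embryo. The RMA software version and the genome build are not given in the sources used here. Their comparison table holds the same log2 values for 491 named clusters, and its score, fold change and p-value columns were not used. Array number limits the precision.

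The 5 genes, the gene lists and the markers were chosen with earlier results of these data known. limma 3.58.1 (lmFit and eBayes, R 4.3.3) was fitted to all clusters without covariates, with two-sided p-values adjusted by Benjamini-Hochberg at a threshold of 0.05, in place of the LPE test of the methods, for which no package was installed. The fit was tested on simulated data. No filter or further normalization was applied. Named were the 5 genes, every list gene the files name, the 3 clusters most like each gene by Pearson's r over 6 arrays, and markers. Neighbours of Bahd1 and 10 receptor signalling genes were chosen after their values were seen. Sequences and gene order came from RefSeq, GRCm38.p6, and coordinates of clusters from the deposited table. Alternatives were another normalization, medians, weights for arrays, a replicate block, a covariate for Y-linked genes, a filter on dim clusters, another prior and each array left out.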

Additional observations from a re-analysis of the deposited data

How the results depend on the processing

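The differences of the 5 genes took 55 alternative values that could change, and each kept its sign and lay within 1 pooled SD of the replicates of the value in the report. With an array left out, however, the shift cannot reach 1 pooled SD at this group size. Each of the 5 differences was larger than its pooled SD, so its sign could not turn there either. For those values only the sizes are informative, and only the alternatives that keep all arrays were open to this check. limma's count was 36 (29 higher and 7 lower in Bahd1-KO MEFs) when only the 11666 clusters above the median brightness were tested. It was 0 under all other alternatives, with each array left out included (lowest 0, highest 0). Testing only bright clusters lowers the number of tests and also lets limma borrow spread from these clusters alone. Of them, 1981 had an unadjusted p under 0.05 in limma, and which part of the step mattered was not tested. Unadjusted p-values under 0.05 numbered 1854 to 2309 with an array left out.

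With each array left out in turn, the differences ranged from 0.57 to 0.67 for Adora2b, 0.66 to 0.81 for Adcyap1r1, 0.42 to 0.59 for Gpr176, 0.82 to 1.39 for Adm and 0.12 to 0.39 for Prkar2b. Prkar2b was 0.36 without Bahd1-KO 1, and the number of genes with all Bahd1-KO arrays above all Bahd1-WT arrays was 5 without Bahd1-KO 1 or Bahd1-WT 3, a count that cannot drop below 4 when an array is left out, and 4 under both normalizations. With group medians in place of means, Adm differed by 0.80 and Prkar2b by 0.39. With a covariate for Y-linked genes, the differences were 0.60 for Adora2b, 0.70 for Adcyap1r1, 0.44 for Gpr176, 1.15 for Adm and 0.19 for Prkar2b. The causes were not tested.

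No pairing by replicate number was seen over all clusters, where deviations from the group means correlated by -0.0005, 0.0266 and 0.0002 between arrays of the same number. Such correlations cannot exclude a pairing that touches few genes. With the replicate block the differences are the same by construction, 0.63, 0.73, 0.51, 1.19 and 0.24 in the order Adora2b, Adcyap1r1, Gpr176, Adm and Prkar2b. limma then called 0 clusters, and the standard error was 0.37 for Adm and 0.10 for Prkar2b. Without the block these standard errors were 0.33 and 0.17.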
